A study of Mus musculus with 96 samples.

Results

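The genes described here encode SLC25 mitochondrial carriers, the proteins that move metabolites across the inner membrane of mitochondria. They are the protein-coding rows of a mouse gene count table whose symbol is Slc25a followed by a number, which gave 47 members out of 56748 genes. They were chosen by biotype and name and not by any measured value, and related genes with other symbols, such as Ucp2 and Mtch2, are not members. Enough reads for a test were present for 43 members in liver, 40 in muscle and 43 in cortex, in each cohort of mice. Slc25a31, Slc25a41, Slc25a43 and Slc25a54 were tested in no diet comparison, of which Slc25a41 entered only the comparison of cohorts in cortex, and Slc25a18, Slc25a21 and Slc25a48 were also not tested in muscle. Slc25a31, an ADP/ATP carrier gene of the male germ line, had at most 0.668 CPM in any library, and the orphan Slc25a43 had at most 1.1 CPM. Slc25a41 and Slc25a54, which resemble the ATP-Mg/phosphate carriers, had at most 0.377 and 0.188 CPM.

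The inner mitochondrial membrane is closed to most charged metabolites, and SLC25 carriers exchange them between cytosol and matrix. They supply ADP and phosphate for ATP synthesis, bring in acylcarnitines for fatty acid oxidation, export citrate for fatty acid synthesis, and link the urea cycle and the malate-aspartate shuttle to the matrix. Fasting shifts the liver from making fat to oxidizing fat and releasing glucose, and these routes draw on members of the family.

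The series covers liver, skeletal muscle and cerebral cortex of C57BL/6 mice with food always available (ad libitum, AL) or on intermittent fasting (IF). According to the methods of the paper, male mice began the diets at 6 weeks of age, the IF mice fasted for 16 h each day for 4 months, and they were killed at the end of a fast. The labels list 32 mice with all 3 tissues, as AL mice 1 to 8, IF mice 9 to 16, AL mice 25 to 32 and IF mice 33 to 40, and each mouse is a separate replicate. Mice 1-16 are labelled male and mice 25-40 female, and the paper's text describes only the male mice, so the diet of mice 25-40 is known only from their labels, and their age is not given. Sex and cohort coincide here and cannot be told apart, so the groups are called by their mouse numbers.

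The values are the authors' read counts per gene, and between 26097314 and 49838004 reads per library fell on genes in the 95 libraries used. The library labelled cortex of AL mouse 1 was left out, since its sex-linked genes read as those of a female mouse: it holds 10219 counts of Xist and 0 of Ddx3y, where the other libraries labelled male hold at most 25 counts of Xist and at least 889 of Ddx3y. The cortex of AL mice 1-16 therefore has 7 libraries and each other group has 8, and cortex results are also given with this library included. Each tissue of each cohort was fitted alone with the quasi-likelihood test of edgeR, and p-values were adjusted over all genes tested by the Benjamini-Hochberg procedure. A member is called when its adjusted p is under 0.05, and a positive log2 fold change, given with its standard error (SE), means more mRNA in IF mice. Levels are CPM of the TMM-scaled library, and levels of different genes are compared only as CPM per kilobase of gene length. Positions on GRCm39 are taken from the deposited table, and because the strand setting of the counting is not stated, counts of genes that overlap another gene are uncertain to that extent. In bulk tissue, fewer cells of a type and less mRNA per cell cannot be told apart.

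In AL mice the levels of most members differed between the tissues. The fit over the 3 tissues of mice 1-16 tested 43 members, and 37 differed in level between muscle and liver, 15 of them higher in muscle, where 76.1% of all genes tested differed. Between cortex and liver 40 differed, 17 of them higher in cortex, where 82% of all genes did. Between cortex and muscle all 43 differed, 19 of them higher in cortex, where 78% of all genes did. In AL mice 25-40 the same 3 comparisons gave 36, 39 and 34 members, where 77.1%, 83% and 78.7% of all genes differed. With the left-out cortex library included, the counts in mice 1-16 were 36, 40 and 43. Shares this large are those of any genes compared between such tissues, so the members' own levels are given.

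In muscle the ADP/ATP carrier Slc25a4, which exchanges ADP from the cytosol for ATP from the matrix (ENSMUSG00000031633, chromosome 8 from 46659834 to 46664321), stood far above the other members. Its level in AL mice 1-16 was 2724 ± 169 CPM per kb (SD, n = 8) in muscle, 209 ± 15.7 (n = 7) in cortex and 2.35 ± 0.376 (n = 8) in liver. In muscle this was 79.4% of the summed CPM per kb of the family, and in AL mice 25-40 it was 75.3%. The difference between muscle and liver on the log2 scale was 10.18 (SE 0.15, adjusted p = 1.03e-32). The other ADP/ATP carrier tested, Slc25a5, had 88.4 ± 13.4 CPM per kb in liver, 27.2 ± 3.91 in muscle and 93.8 ± 6.81 in cortex. Nearly all ADP/ATP carrier mRNA of liver thus came from Slc25a5 and nearly all of that of muscle from Slc25a4, while cortex held much of each. The phosphate carrier gene Slc25a3, whose product brings in the phosphate for ATP synthesis, ranked below Slc25a4 in muscle at 213 ± 13.2 CPM per kb, and reached 57.7 ± 3.87 in cortex and 49.5 in liver.

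The citrate carrier Slc25a1, the dicarboxylate carrier Slc25a10 and the glutathione carrier Slc25a39 were among the most abundant members in liver. Slc25a10, which exchanges malate and succinate for phosphate, had 131 ± 17 CPM per kb in liver of AL mice 1-16, and the citrate carrier Slc25a1 had 127 ± 16.8. The glutathione carrier Slc25a39 had 125 ± 17 CPM per kb in liver, and Slc25a47, a carrier found mainly in liver, had 96.8 ± 51. In AL mice 25-40 the values were 160.3 ± 69.3 for Slc25a47, 156 ± 34.1 for Slc25a39, 136 ± 17.7 for Slc25a1, 112 ± 30.2 for Slc25a5 and 109 ± 9.93 for Slc25a10. Against liver, muscle was lower in Slc25a10, with a log2 difference of -5.43 (SE 0.25, adjusted p = 6.92e-20) and in Slc25a1, with -4.48 (SE 0.35, adjusted p = 1.4e-13). Slc25a10 and Slc25a1 were therefore far less abundant in muscle than in liver, whereas Slc25a39 was also among the abundant members of muscle.

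The carriers of malate, aspartate and glutamate also differed in level between the tissues. The oxoglutarate carrier Slc25a11 and the aspartate-glutamate carrier Slc25a12, which together run the malate-aspartate shuttle, had 167 ± 11.8 and 61.4 ± 3.55 CPM per kb in muscle. Slc25a12 was higher in muscle than in liver by 5.35 (SE 0.10, adjusted p = 4.14e-30) on the log2 scale, and its paralog Slc25a13 was lower in muscle, with -7.22 (SE 0.24, adjusted p = 1.28e-23). The 2 aspartate-glutamate carriers thus had opposite tissue patterns, with Slc25a13 the main form in liver. In cortex the ATP-Mg/phosphate carrier Slc25a23 had 60.1 ± 7.32 CPM per kb and the glutamate carrier Slc25a22 had 37.4 ± 6.13, below the 56.3 ± 10.4 of Slc25a22 in liver. The other glutamate carrier, Slc25a18, had a median of 61.2 CPM in cortex and 0.415 CPM in liver of AL mice. The marker genes of the tissues lay where the labels put them: median CPM in AL mice 1-16 was 40279 for Alb in liver, 21368 for Ckm in muscle and 1592 for Snap25 in cortex. In the other tissues these genes had medians of at most 0.484 CPM. Ttr, also a liver marker, reached 2118 CPM in the cortex of 1 AL mouse. In the cortex of IF mice 1-16 the summed liver markers ran from 2.62 to 2273 CPM.

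**Figure D1:**
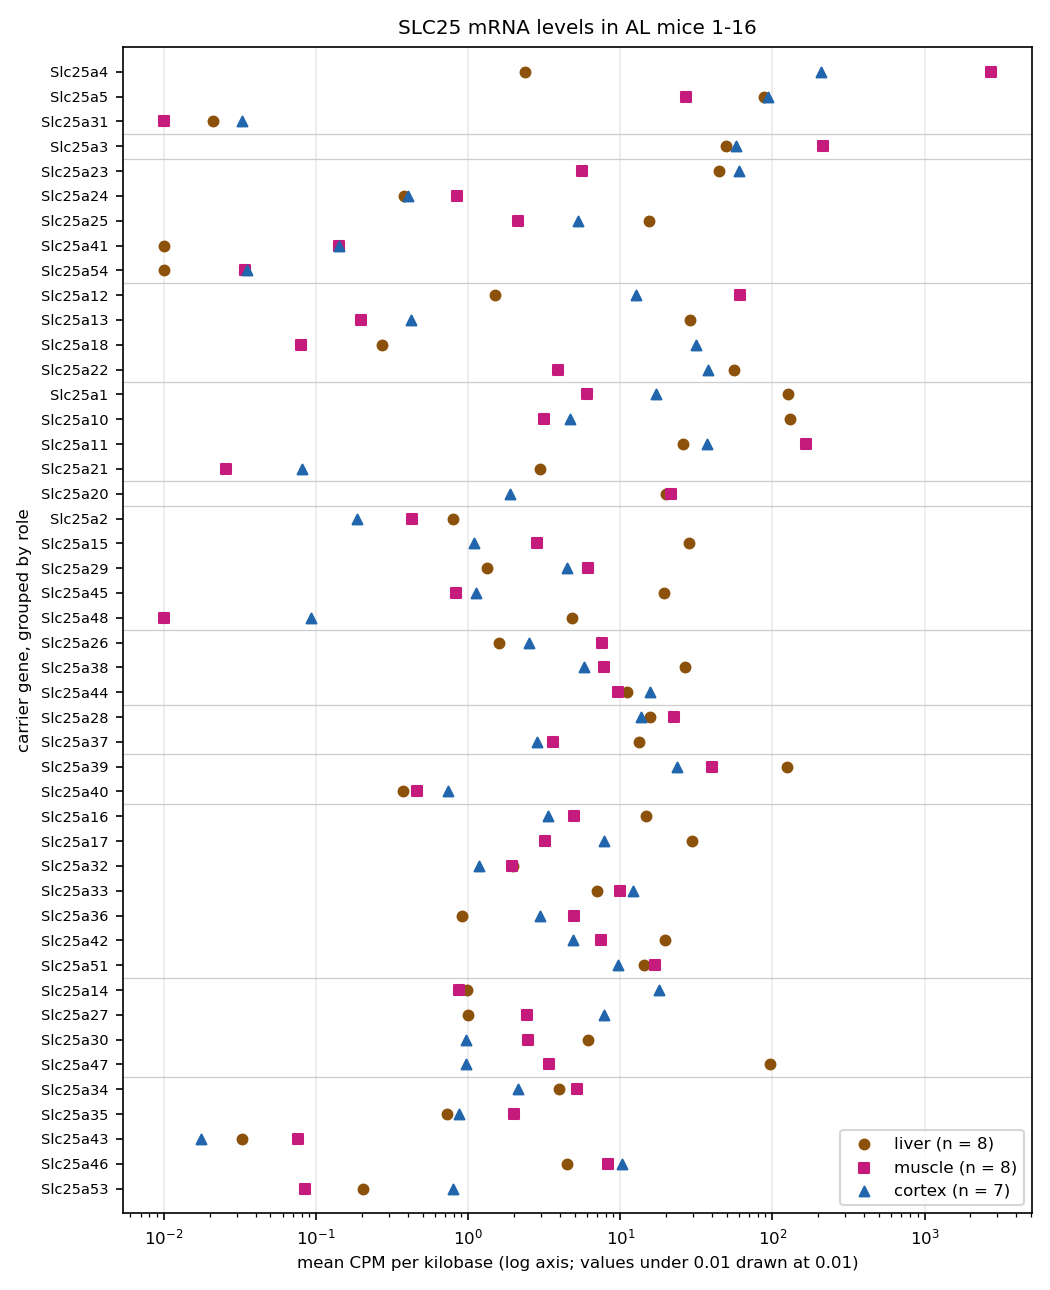
Mean level of SLC25 members in liver, muscle and cortex of AL mice 1-16 as CPM per kilobase on a log axis, with members grouped by role; each point is the mean of 8 libraries, or 7 for cortex. The tissues differ by several powers of 10 in single members, and Slc25a4 in muscle lies above all others.

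In liver of mice 1-16, intermittent fasting went with changes in most of the family, and more members rose than fell. Of the 43 members tested, 30 were called, where 44.6% of the 16204 genes tested were. Of these members 21 rose and 9 fell, where 23.5% of all genes rose and 21.1% fell. The excess of rising members held under relative log expression (RLE) size factors and under DESeq2, with 20 up and 9 down in each, whereas among all genes these settings turned the excess around. The median log2 fold change of the members was 0.35, and that of all genes tested was 0.06. In 9 members the ranges of the 2 diets did not overlap, where 15% of all genes did not. The summed CPM of all 47 members ran from 3418 to 4046 CPM (median 3749.8) in AL mice and from 4403 to 5655 CPM (median 4964) in IF mice, without overlap, but with Slc25a47 left out of the sum the diets overlapped.

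The largest rise was in nucleotide transport. Slc25a33 (ENSMUSG00000028982, chromosome 4 from 149828493 to 149858734, overlapped by Gm13068) encodes a carrier of pyrimidine nucleotides, and its mRNA was between 10.1 and 16.5 CPM (median 13.6) under AL and between 57.9 and 86.1 CPM (median 70.2) under IF. Its log2 fold change was 2.46 (SE 0.12, adjusted p = 8.28e-13), and each IF mouse lay above each AL mouse by a wide margin. The related pyrimidine nucleotide carrier Slc25a36 rose less, with 0.66 (SE 0.19, adjusted p = 0.00519), and its groups overlapped. Slc25a32, a carrier of folate and flavin, rose by 0.84 without overlap, and Slc25a51, which brings NAD into the matrix, rose by 0.89 with overlap. Slc25a42, which carries coenzyme A and ADP, rose by 0.33, and this call was lost without AL mouse 1, IF mouse 11 or IF mouse 12, where the adjusted p reached 0.0741.

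Other cofactor carriers fell in the same livers. Slc25a16 (ENSMUSG00000071253, chromosome 10 from 62756412 to 62782277, overlapped by Gm16128 and Gm25862), a carrier linked to the coenzyme A supply of mitochondria, had between 55.7 and 85.7 CPM (median 73.9) under AL and between 24.1 and 29.8 CPM (median 26.3) under IF. Its log2 fold change was -1.35 (SE 0.10, adjusted p = 3.88e-10). Slc25a17, a peroxisomal carrier of coenzyme A and related cofactors (ENSMUSG00000022404, chromosome 15 from 81203112 to 81245013), had between 71.9 and 95.3 CPM (median 86.5) under AL and between 31.8 and 46 CPM (median 36) under IF, a log2 fold change of -1.15 (SE 0.10, adjusted p = 2.2e-09). In neither gene did any IF mouse reach the level of any AL mouse.

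Slc25a47 and Slc25a25 showed large changes on a background of wide spread between mice. Slc25a47 (ENSMUSG00000048856, chromosome 12 from 108801972 to 108822741, overlapped by Mir345) had between 110.4 and 625 CPM (median 262) under AL and between 724 and 1665 CPM (median 1111) under IF, and its log2 fold change was 1.99 (SE 0.27, adjusted p = 9.66e-06). The groups did not overlap, although AL mouse 8 lay well above the other AL mice. Slc25a25 (ENSMUSG00000026819, chromosome 2 from 32304499 to 32341457, overlapped by Naif1), a calcium-regulated ATP-Mg/phosphate carrier, had between 38.8 and 216 CPM (median 122) under AL and between 159 and 413 CPM (median 266) under IF, with a log2 fold change of 1.19 (SE 0.26, adjusted p = 0.0014). Here the groups overlapped, and the AL mice spread over a wide range. Its relative Slc25a24 also rose (0.95) from a low level, while Slc25a23 fell. Slc25a23 had between 201 and 277 CPM (median 236) under AL and between 121 and 158 CPM (median 137) under IF, a log2 fold change of -0.72 (SE 0.10, adjusted p = 2.27e-06) without overlap. With erythrocyte markers in the model neither Slc25a24 (0.28, adjusted p = 0.655) nor Slc25a25 (0.98, adjusted p = 0.0607) was called.

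The carriers that serve ATP synthesis rose, although the rise of Slc25a4 was not called with erythrocyte markers in the model (0.33, adjusted p = 0.266). Slc25a3 had between 258 and 295 CPM (median 273) under AL and between 352 and 467 CPM (median 396) under IF, and its log2 fold change was 0.59 (SE 0.09, adjusted p = 6.36e-06), without overlap between the diets. Slc25a5 had between 112 and 192 CPM (median 144) under AL and between 153 and 233 CPM (median 218) under IF and rose by 0.54 (SE 0.11, adjusted p = 0.000439), with overlap. Slc25a4, the main form of muscle, had between 4.5 and 6.81 CPM (median 5.51) under AL and between 5.91 and 12.2 CPM (median 9.19) under IF and rose by 0.78 (SE 0.17, adjusted p = 0.000567). Among 13 genes of mitochondrial content, 5 rose and 2 fell, with a median log2 fold change of 0.18. Slc25a20, the acylcarnitine carrier gene, rose by 0.52 with overlap, and of 5 acyl-carnitine formation genes tested, Cpt1a (1.17), Crat (1.69) and Cpt1c (0.89) rose.

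The di- and tricarboxylate carriers did not share in the rise. The citrate carrier Slc25a1 had between 225 and 339 CPM (median 266) under AL and between 210.0 and 398 CPM (median 233) under IF with a log2 fold change of -0.08 (SE 0.13, adjusted p = 0.656) and was not called, while genes that use citrate in the cytosol fell in 3 of 7 cases, among them Fasn (-2.18) and Acly (-1.71). Slc25a10 had between 378 and 559.5 CPM (median 457) under AL and between 315 and 435 CPM (median 349) under IF and had a log2 fold change of -0.28 (SE 0.11, adjusted p = 0.033). That call was lost when any of AL mice 3, 4, 6 and 7 and IF mice 12 and 14 was left out, where the adjusted p reached 0.0768. Slc25a21, the oxodicarboxylate carrier gene, fell from a median of 13.9 to 6.48 CPM, and Slc25a11 was not called.

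Of the carriers of aspartate and glutamate, Slc25a13 rose, and the call of Slc25a12 depended on the processing. Slc25a13 had between 87 and 127 CPM (median 109) under AL and between 131 and 164 CPM (median 148) under IF, a log2 fold change of 0.48 (SE 0.10, adjusted p = 0.000241) without overlap. Slc25a12, its paralog, rose by 0.35 (SE 0.14, adjusted p = 0.0403), a call that ended when any of 11 libraries (AL mice 3, 4, 6, 7 and 8 and IF mice 9, 11, 13, 14, 15 and 16) was left out, with an adjusted p of up to 0.122. Slc25a12 was also not called with RLE size factors (adjusted p = 0.0547), DESeq2 (0.0642), no filter beyond 1 count (0.0911) or a replicate block (0.0842). Of the shuttle's 4 enzymes, Got1 (1.16), Got2 (0.37) and Mdh2 (0.80) rose as well. The glutamate carriers Slc25a18 and Slc25a22 were not called.

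Amino acid carriers changed in both directions. Slc25a45 (ENSMUSG00000024818, chromosome 19 from 5927836 to 5935906), which groups by sequence with the carriers of basic amino acids, had between 37.3 and 63 CPM (median 54.9) under AL and between 12.6 and 27.3 CPM (median 21.7) under IF, a log2 fold change of -1.31 (SE 0.13, adjusted p = 3.17e-08) without overlap. Slc25a29, a carrier of arginine and lysine (ENSMUSG00000021265, chromosome 12 from 108791799 to 108801809), moved the other way from a low level, with between 1.63 and 4.74 CPM (median 3.32) under AL and between 3.6 and 13.2 CPM (median 6.51) under IF and a log2 fold change of 1.14 (SE 0.24, adjusted p = 0.000465). The ornithine carrier Slc25a15 was not called, and its paralog Slc25a2 rose by 1.14 at a median of 1.96 CPM in IF mice, while Slc25a48 was not called. Of 6 urea cycle enzymes 1 rose and 2 fell. The glycine carrier Slc25a38 fell (-0.60), and the S-adenosylmethionine carrier Slc25a26 rose (0.48). Slc25a44, a carrier of branched-chain amino acids, had between 33.4 and 47.5 CPM (median 39.2) under AL and between 22.1 and 36.6 CPM (median 29.8) under IF, with a log2 fold change of -0.37 (SE 0.12, adjusted p = 0.0161), which did not pass with 7 mice per group (-0.28, adjusted p = 0.0644).

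The remaining members complete the count. Slc25a39, the glutathione carrier gene, had between 265 and 413 CPM (median 349) under AL and between 324 and 632 CPM (median 442) under IF and rose by 0.39 (SE 0.13, adjusted p = 0.0176), but without IF mouse 11 its adjusted p was 0.0613, and its relative Slc25a40 was not called. The iron carrier Slc25a28 rose (0.44) and Slc25a37 was not called, while of 10 genes of mitochondrial iron use 4 rose and 4 fell. Slc25a35 (ENSMUSG00000018740, chromosome 11 from 68858957 to 68865191, overlapped by Rangrf), an orphan, had between 1.59 and 4.2 CPM (median 2.51) under AL and between 0 and 1.68 CPM (median 0.754) under IF, a log2 fold change of -1.85 (SE 0.47, adjusted p = 0.00241), at levels low enough to overlap. Slc25a34, also an orphan, rose (0.62), as did Slc25a46 of the outer membrane (0.50). Slc25a14, Slc25a27, Slc25a30 and Slc25a53 were not called.

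**Figure D2:**
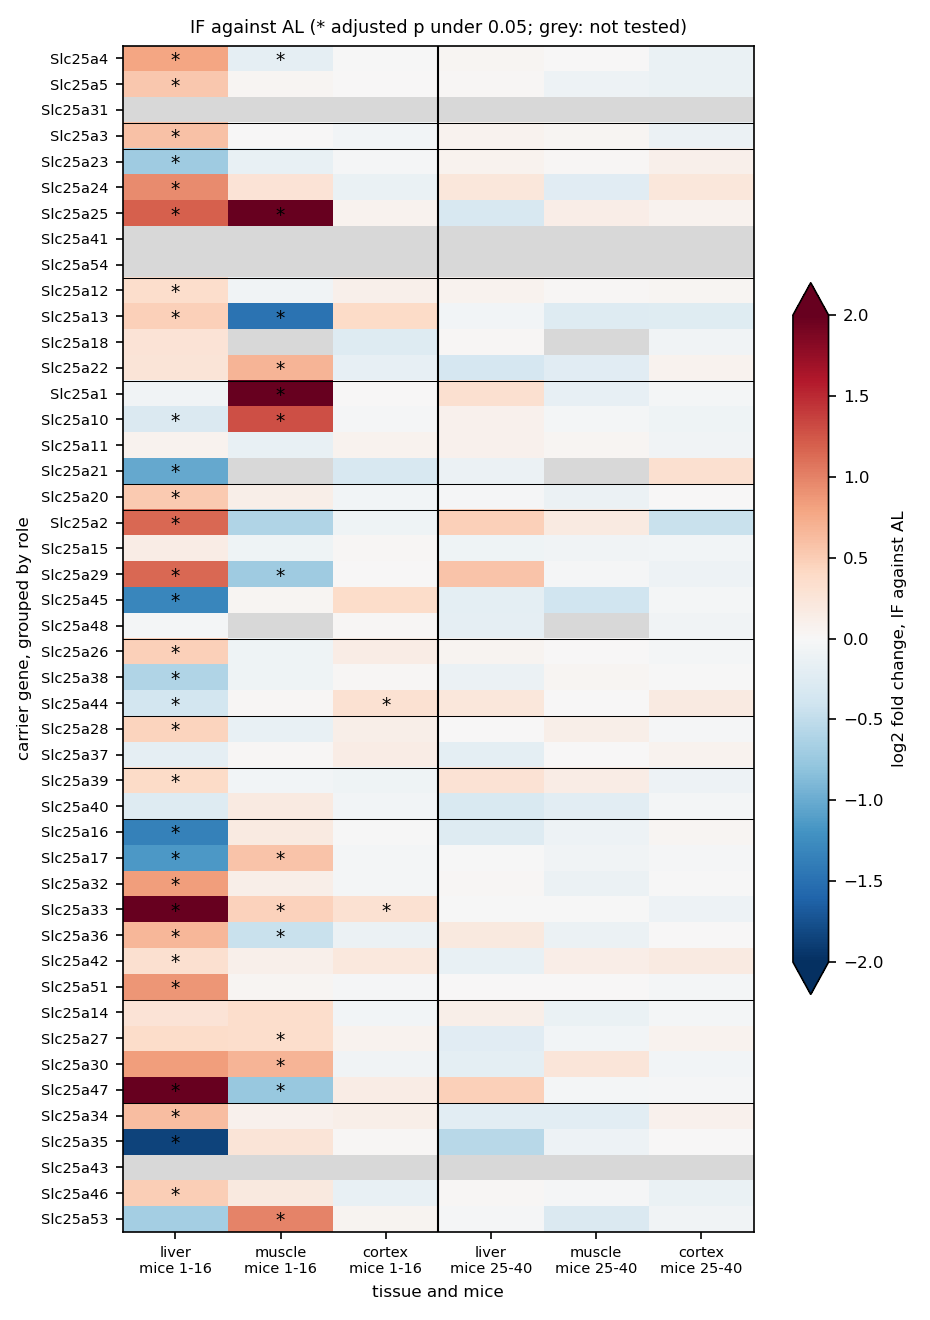
Log2 fold change of IF against AL mice for SLC25 members in 3 tissues and 2 cohorts, as colour, with members grouped by role; a star marks an adjusted p under 0.05 and grey marks members not tested. Stars fill much of the column for liver of mice 1-16, a part of that for muscle, 2 cells for cortex and none in mice 25-40.

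Erythrocyte mRNA also differed between these livers. The summed CPM of 5 erythrocyte markers ran from 442 to 998 CPM (median 634) in AL mice and from 728 to 6698 CPM (median 2147) in IF mice, with Hba-a1 the most abundant and no marker absent. Of these markers 3 of 5 rose, namely Hba-a1 (1.70), Hbb-bs (3.17) and Hbb-bt (2.67). With the mean log2 CPM of the markers in the model, 20 members were called, 13 up and 7 down, and all 20 were among the 30, while the count over all genes fell from 7234 to 3995. Slc25a25 was among those no longer called (0.98, adjusted p = 0.0607), and the log2 fold changes of Slc25a4 and Slc25a24 shrank to 0.33 and 0.28. The others no longer called moved less, with -0.29 for Slc25a10, 0.29 for Slc25a12, 0.32 for Slc25a28, 0.54 for Slc25a36, 0.31 for Slc25a39, -0.24 for Slc25a44 and 0.41 for Slc25a46. Beyond this fit, the part of erythrocytes in the result was not tested.

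**Figure D3:**
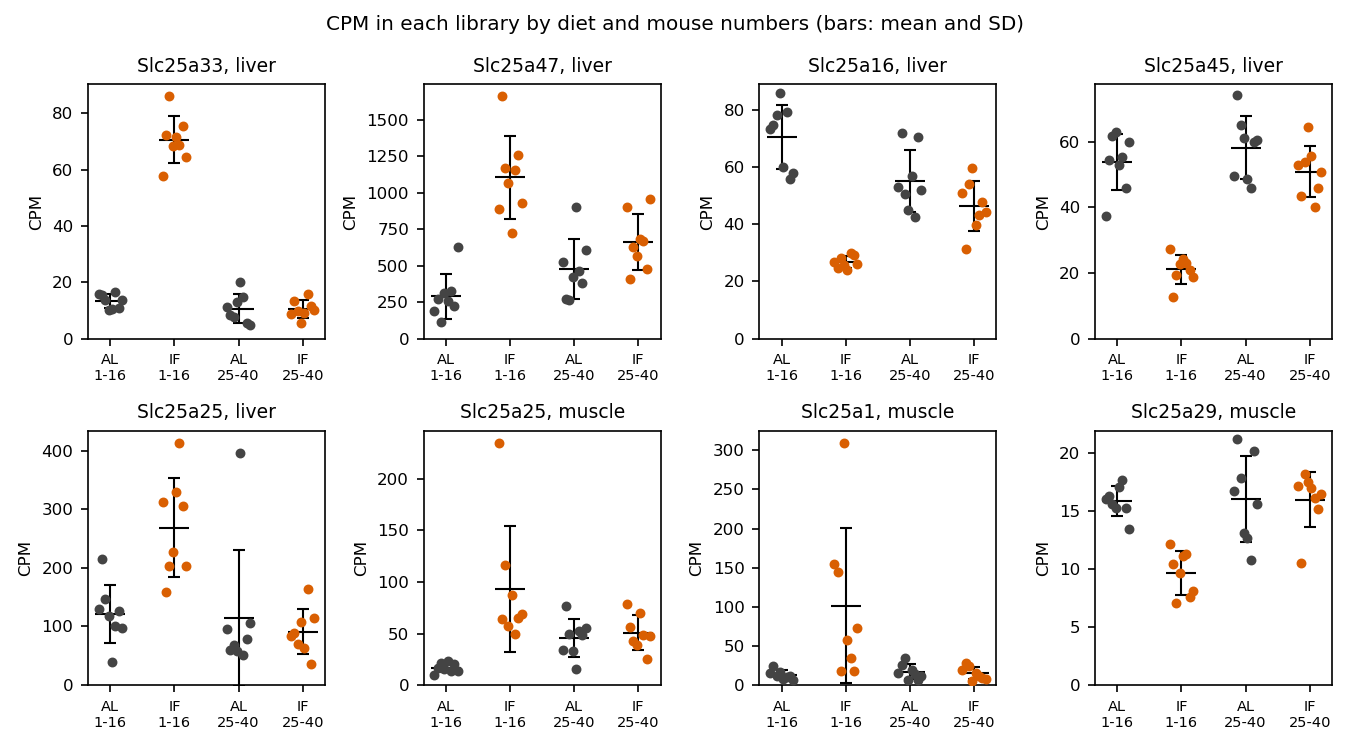
CPM per library of Slc25a33, Slc25a47, Slc25a16, Slc25a45 and Slc25a25 in liver and of Slc25a25, Slc25a1 and Slc25a29 in muscle, for AL and IF mice of both cohorts; points are mice and bars are the mean and SD. The diets differ in mice 1-16 and lie largely on top of each other in mice 25-40.

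In liver of mice 25-40 edgeR called 0 of the 43 members, and it called 0% of the 15938 genes tested. At an unadjusted p under 0.05 there were 4 members, Slc25a1, Slc25a22, Slc25a29 and Slc25a47, where 5.77% of all genes passed, and DESeq2 called 0 members. The median log2 fold change was 0.01 for the members and -0.01 for all genes. Slc25a47 was between 265 and 903 CPM (median 442) under AL and between 409.6 and 958 CPM (median 650.1) under IF, a log2 fold change of 0.47 (SE 0.23, adjusted p = 0.85). Slc25a33 was between 4.89 and 20.02 CPM (median 9.67) under AL and between 5.6 and 16 CPM (median 9.97) under IF, with -0.01 (SE 0.25, adjusted p = 1), so the diets were alike in range.

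The difference in response between the cohorts was tested as an interaction. In liver 16 of 43 members had responses that differed, where 23.7% of all genes tested did. The IF response of Slc25a33 was smaller in mice 25-40 than in mice 1-16, with a log2 difference of -2.43 (SE 0.29, adjusted p = 1.67e-07), and so was that of Slc25a47, with -1.48 (SE 0.36, adjusted p = 0.0028). For Slc25a25 the difference was -1.49 (SE 0.52, adjusted p = 0.0373). The liver of AL mouse 29 had 14855 counts of Slc25a25, where the other AL livers of mice 25-40 had at most 3817. The difference was not tested without that mouse. Without the filter on low counts 13 members were called, and Slc25a25 (adjusted p = 0.0621), Slc25a4 (0.0635) and Slc25a20 (0.0551) did not pass. Among members that fell in mice 1-16, the difference was 1.14 (SE 0.17, adjusted p = 4.07e-06) for Slc25a16, 1.15 (SE 0.18, adjusted p = 8.72e-06) for Slc25a45 and 1.17 (SE 0.15, adjusted p = 2.86e-07) for Slc25a17. Each of these differences has the sign opposite to the change in mice 1-16, so the responses of mice 25-40 were nearer to none. The other members whose responses differed were Slc25a3, Slc25a4, Slc25a13, Slc25a20, Slc25a21, Slc25a23, Slc25a32, Slc25a34, Slc25a44 and Slc25a51. In Slc25a17 AL mice 25-40, at 29 to 53 CPM (median 42.5), lay near IF mice 1-16, at 31.8 to 46 CPM (median 36). CPM were scaled apart in each cohort, and AL levels were not tested between the cohorts.

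In muscle of mice 1-16, fewer members changed, and they did so in both directions. Of 40 members tested 15 were called, where 23% of the 15025 genes tested were. Of these 9 rose and 6 fell, where 11.5% of all genes rose and 11.6% fell. RLE size factors gave the same numbers, and DESeq2 gave 10 up and 7 down. The median log2 fold change of the members was 0.04, and that of all genes was 0.01. In 6 members the diets did not overlap, where 3.99% of all genes did not. The summed CPM of the family ran from 8572 to 10207 CPM (median 9439) in AL mice and from 8000.1 to 9118 CPM (median 8868) in IF mice, with overlap.

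The largest rises were in the citrate carrier and in an ATP-Mg/phosphate carrier. Slc25a1 (ENSMUSG00000003528, chromosome 16 from 17743087 to 17746083) had between 6.95 and 24.3 CPM (median 11.5) under AL and between 18.1 and 309 CPM (median 65.2) under IF, a log2 fold change of 2.96 (SE 0.59, adjusted p = 0.00247). The groups overlapped, and the IF mice spread over more than a factor of 10. Slc25a25 had between 10.1 and 23.4 CPM (median 15.9) under AL and between 49.4 and 235 CPM (median 66.6) under IF, a log2 fold change of 2.47 (SE 0.33, adjusted p = 0.000117), and each IF mouse lay above each AL mouse. Slc25a10 (ENSMUSG00000025792, chromosome 11 from 120382666 to 120390013, overlapped by Gm11788) had between 7.77 and 19.4 CPM (median 9.06) under AL and between 9.21 and 52.1 CPM (median 21.5) under IF, with a log2 fold change of 1.29 (SE 0.36, adjusted p = 0.019). Slc25a53 (ENSMUSG00000044348, chromosome X from 135881865 to 135939051, overlapped by Zcchc18 and Gm15038), an orphan, had between 0.424 and 1.08 CPM (median 0.649) under AL and between 0.524 and 2.19 CPM (median 1.27) under IF, with 1.0 (SE 0.27, adjusted p = 0.0106), and in both genes the diets overlapped.

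Adipocyte mRNA in the muscle libraries moved with some of these members. The summed CPM of 5 adipocyte markers ran from 15 to 191 CPM (median 53.4) in AL mice and from 59.6 to 892 CPM (median 279) in IF mice. Of these markers 4 of 5 rose, namely Adipoq (2.25), Plin1 (2.20), Cidec (2.52) and Retn (2.20), while Lep was not called (-1.25). Brown adipocyte markers summed to 1.7 to 8.72 CPM (median 3.05) in AL and 4.16 to 271 CPM (median 16.3) in IF mice, where Cidea rose (4.52) and Ucp1 had a median of 0 in AL mice and was not tested. Slc25a1 was highest in IF mouse 12 (309 CPM), IF mouse 9 (155) and IF mouse 10 (144), the mice with the highest adipocyte sums. Of 7 genes of cytosolic citrate use 6 rose, among them Fasn (3.74), Acaca (2.40) and Acly (1.28).

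A fit with the mean log2 CPM of the adipocyte markers in the model, chosen after seeing the data, separated the members. It called 15 members, 7 up and 8 down, of which 11 were called without it. Over all genes the same fit called 3349 of 15025, 1599 up and 1750 down. Slc25a1 was then no longer called (1.39, adjusted p = 0.0568), nor were Slc25a10 (0.42, adjusted p = 0.329), Slc25a22 (0.38, adjusted p = 0.255) and Slc25a13 (-1.02, adjusted p = 0.199). Slc25a25 was still called (2.59, adjusted p = 0.000555). Beyond this fit, the part of adipocytes in the result was not tested.

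**Figure D4:**
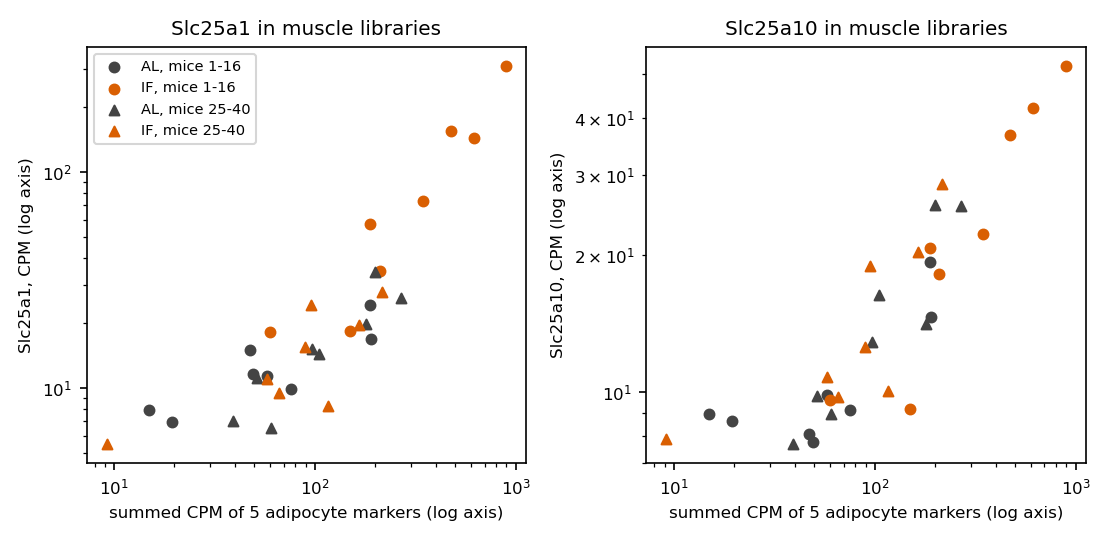
CPM of Slc25a1 and Slc25a10 against the summed CPM of 5 adipocyte markers in the muscle libraries, on log axes, with 1 point per mouse, coloured by diet and cohort. Libraries with more adipocyte mRNA tend to have more mRNA of each carrier.

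Among the members that fell in muscle, 3 separated the diets. Slc25a47 had between 7.99 and 13.3 CPM (median 9.8) under AL and between 4.44 and 7.67 CPM (median 6.16) under IF, a log2 fold change of -0.77 (SE 0.12, adjusted p = 0.000134). Slc25a29 had between 13.4 and 17.7 CPM (median 15.9) under AL and between 7.08 and 12.1 CPM (median 10.05) under IF, a log2 fold change of -0.71 (SE 0.10, adjusted p = 4.64e-05). Slc25a36 (ENSMUSG00000032449, chromosome 9 from 96957014 to 96993210, overlapped by Gm16185) had between 43.2 and 55.4 CPM (median 46.3) under AL and between 28.7 and 38.7 CPM (median 35.9) under IF, a log2 fold change of -0.45 (SE 0.07, adjusted p = 9.76e-05). In each of these 3 genes every IF mouse lay below every AL mouse. Slc25a4, which makes up most of the family's mRNA in muscle, had between 5558 and 6931 CPM (median 6474) under AL and between 4839.6 and 6122 CPM (median 5851) under IF, and its log2 fold change was small at -0.18 (SE 0.06, adjusted p = 0.0422). That call was lost when any of AL mice 1 to 7 or IF mice 9 to 12, 11 libraries in all, was left out, where the adjusted p reached 0.08, and also with a replicate block (adjusted p = 0.0693) and with 7 mice per group (0.087). Of 5 muscle markers 2 fell and 0 rose in the same libraries, with a median log2 fold change of -0.16. Their part in the result was not tested. Slc25a13 had between 0.253 and 1.48 CPM (median 0.758) under AL and between 0.033 and 0.631 CPM (median 0.259) under IF and a log2 fold change of -1.48 (SE 0.46, adjusted p = 0.0219), which did not pass without AL mouse 5 (adjusted p = 0.0572).

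Smaller rises completed the list in muscle. Slc25a17 had between 6.63 and 11.1 CPM (median 9.26) under AL and between 11.5 and 15.4 CPM (median 13.6) under IF, a log2 fold change of 0.58 (SE 0.11, adjusted p = 0.000453), and Slc25a33 had between 15.4 and 21.1 CPM (median 18.5) under AL and between 21.8 and 32.4 CPM (median 24.3) under IF, with 0.45 (SE 0.09, adjusted p = 0.000808), both without overlap. Slc25a22 had between 16.2 and 42.1 CPM (median 20.4) under AL and between 22.8 and 53.1 CPM (median 35.2) under IF and a log2 fold change of 0.68 (SE 0.21, adjusted p = 0.0281), and it did not pass without AL mouse 3, 4 or 7 or IF mouse 12, 13 or 16 (adjusted p of up to 0.0567), nor without the filter on low counts (0.0601) or with a replicate block (0.0585). Slc25a27 (0.35) and Slc25a30 (0.69), which resemble uncoupling proteins, rose too, as did Ucp3 (2.16) and Ucp2 (0.82), which are not members. Slc25a30 did not pass without the filter on low counts (adjusted p = 0.0551). The carriers that were most abundant after Slc25a4 were not called, namely Slc25a3 (0.00, adjusted p = 0.997), Slc25a11 (-0.14, adjusted p = 0.0631), Slc25a12 (-0.07, adjusted p = 0.324) and Slc25a39 (-0.06, adjusted p = 0.685). Slc25a48 was at 0 in all AL mice and at up to 1.69 CPM in IF mouse 12, and it was not tested.

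In muscle of mice 25-40 edgeR called 0 of 40 members, where 0.00653% of the 15308 genes tested were called. At an unadjusted p under 0.05 there were 0 members, where 10.7% of all genes passed, and DESeq2 called 0 members. The median log2 fold change was -0.03 for the members and -0.02 for all genes. Slc25a1 was between 6.53 and 34.5 CPM (median 14.7) under AL and between 5.47 and 27.7 CPM (median 13.2) under IF, with a log2 fold change of -0.17 (SE 0.40, adjusted p = 0.908). Slc25a25 was between 15.7 and 77.2 CPM (median 49.2) under AL and between 25.4 and 78.5 CPM (median 47.9) under IF. Its AL mice lay mostly above the AL mice 1-16, but CPM were scaled apart in each cohort and this was not tested. The interaction of cohort and diet was called for 7 of 40 members in muscle, where 14.2% of all genes were. The difference, mice 25-40 minus mice 1-16, was -3.11 (SE 0.70, adjusted p = 0.00328) for Slc25a1 and -2.32 (SE 0.43, adjusted p = 0.000518) for Slc25a25. Slc25a53 had -1.26 (SE 0.33, adjusted p = 0.00825), Slc25a29 0.70 (SE 0.17, adjusted p = 0.00545) and Slc25a47 0.74 (SE 0.17, adjusted p = 0.00394). Slc25a17 was also among them, and as in liver the signs of the members named were opposite to the changes in mice 1-16.

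In cortex of mice 1-16 edgeR called 2 of 43 members, where 7.21% of the 18462 genes tested were called. Both rose, where 3.79% of all genes rose. The diets overlapped in every member, where in 1.07% of all genes they did not. The median log2 fold change was 0.01 for the members and 0.00 for all genes. Slc25a33 had between 19.6 and 25.9 CPM (median 22.4) under AL and between 25.6 and 31.1 CPM (median 28.2) under IF, a log2 fold change of 0.30 (SE 0.06, adjusted p = 0.0111). Slc25a44 (ENSMUSG00000050144, chromosome 3 from 88317805 to 88332446) had between 50.3 and 64.7 CPM (median 55.8) under AL and between 58.4 and 76.9 CPM (median 68.2) under IF, a log2 fold change of 0.30 (SE 0.07, adjusted p = 0.0164). Most IF mice lay in the upper part of the AL range or above it. With the left-out library of AL mouse 1 included, neither Slc25a33 (0.25, adjusted p = 0.0773) nor Slc25a44 (0.25, adjusted p = 0.0859) passed, and the count over all genes was 294 in place of 1332. Neither passed with a replicate block (adjusted p = 0.0603 and 0.0646) or without both AL mouse 2 and IF mouse 10 (0.0545 and 0.0585). The abundant members were not called, among them Slc25a4 (-0.01, adjusted p = 0.962), Slc25a5 (0.01, adjusted p = 0.973), Slc25a3 (-0.06, adjusted p = 0.59), Slc25a22 (-0.17, adjusted p = 0.245) and Slc25a23 (-0.03, adjusted p = 0.879). Oligodendrocyte markers differed in the same libraries, with 4 of 5 rising, the most abundant being Mbp, and sums of 2574 to 3977 CPM (median 3047) in AL and 3453 to 5608 CPM (median 4495) in IF mice. Their part in the result was not tested.

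In cortex of mice 25-40 edgeR called 0 of 43 members, where 0.0109% of the 18403 genes tested were called. At an unadjusted p under 0.05 there were 3 members, Slc25a42, Slc25a44 and Slc25a46, where 11.2% of all genes passed, and DESeq2 called 0 members. The median log2 fold change was -0.04 for the members and 0.00 for all genes. Slc25a33 was between 24.1 and 31.4 CPM (median 28.6) under AL and between 23.6 and 28.7 CPM (median 26.4) under IF, and Slc25a44 was between 55.4 and 81 CPM (median 62.9) under AL and between 61.6 and 81.1 CPM (median 74.9) under IF. The interaction of cohort and diet was called for 1 of 44 members in cortex, where 2.03% of all genes were. That member was Slc25a33, with a difference of -0.40 (SE 0.09, adjusted p = 0.0173), and with the left-out library included it did not pass (-0.35, adjusted p = 0.0886).

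Across the tissues of mice 1-16, several members responded to the diet in opposite directions. The interaction of tissue and diet was called for 29 of 43 members between muscle and liver, where 31% of all genes were. Between cortex and liver it was called for 23, where 26.7% of all genes were, and between cortex and muscle for 7, where 3.8% were. With the left-out cortex library included the counts were 29, 24 and 7. Slc25a4, Slc25a13, Slc25a29, Slc25a36 and Slc25a47 were called higher in liver and lower in muscle. With erythrocyte markers in the model the liver calls of Slc25a4 (adjusted p = 0.266) and Slc25a36 (0.147) were lost. In muscle Slc25a4 was lost with a replicate block (adjusted p = 0.0693), with 7 mice per group (0.087) or without any of AL mice 1 to 7 or IF mice 9 to 12 (up to 0.08), and Slc25a13 with adipocyte markers in the model (0.199) or without AL mouse 5 (0.0572). The response of muscle minus that of liver was -2.79 (SE 0.27, adjusted p = 1.47e-09) for Slc25a47 and -1.79 (SE 0.26, adjusted p = 1.58e-06) for Slc25a29. It was -1.90 (SE 0.38, adjusted p = 0.000201) for Slc25a13, -1.04 (SE 0.18, adjusted p = 2.6e-05) for Slc25a36 and -0.90 (SE 0.15, adjusted p = 1.79e-05) for Slc25a4. Slc25a29 and Slc25a47 lie next to each other on chromosome 12 on opposite strands, and both rose in liver and fell in muscle.

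Slc25a10 and Slc25a17 fell in liver and rose in muscle. For Slc25a10 neither call was firm, since the fall in liver was lost without AL mouse 3, 4, 6 or 7 or IF mouse 12 or 14 (adjusted p of up to 0.0768) or with erythrocyte markers in the model (adjusted p = 0.196), and the rise in muscle with adipocyte markers in the model (0.42, adjusted p = 0.329). The response of muscle minus that of liver was 1.78 (SE 0.12, adjusted p = 2.05e-13) for Slc25a17 and 1.53 (SE 0.30, adjusted p = 0.000136) for Slc25a10. For Slc25a44, lower in liver and higher in cortex, cortex minus liver was 0.72 (SE 0.14, adjusted p = 0.000209). Its call in liver was lost with 7 mice per group (adjusted p = 0.0644) or with erythrocyte markers in the model (0.337). That in cortex was lost with a replicate block (0.0646), without AL mouse 2 and IF mouse 10 (0.0585) or with the left-out library included (0.0859). Slc25a33 rose in liver and muscle of mice 1-16 and also in cortex. The cortex call was lost with a replicate block (adjusted p = 0.0603), without AL mouse 2 and IF mouse 10 (0.0545) or with the left-out library included (0.0773). The response of Slc25a33 was larger in liver than in muscle or cortex. Muscle minus liver was -1.97 (SE 0.13, adjusted p = 1.49e-13) and cortex minus liver was -2.16 (SE 0.13, adjusted p = 7.42e-14). Slc25a25 rose in muscle and, by a call lost with erythrocyte markers in the model (0.98, adjusted p = 0.0607), in liver, and it was not called in cortex, at 0.06 (SE 0.09, adjusted p = 0.707). In mice 25-40 edgeR called the interaction of tissue and diet for 0 members in each of the 3 comparisons, where 0.0047%, 0% and 0.0047% of all genes were called. At an unadjusted p under 0.05 there were 3, 4 and 0 members, where 1648, 2037 and 1160 of the 21292 genes tested passed, and DESeq2 was not run on this fit.

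Promoters of 36 members, with 46 starts of transcription, were read for 4 short motifs in the 250 bases before the start as RefSeq gives it on GRCm38.p6, a different build from that of the table. On both strands, the E-box CACGTG is present in 6.02% of 32851 promoters and the cAMP response element TGACGTCA in 1.55%. The E-box was present in 8 of the 46 promoters of members, those of Slc25a1, Slc25a13, Slc25a14, Slc25a15, Slc25a31, Slc25a33 and Slc25a36, and the cAMP response element in 2, of Slc25a25 and Slc25a36. These include members that were not called or not tested. The matching promoters of Slc25a14 overlap and hold the same E-box, so that site was counted more than once. The FoxO element GTAAACA and the D-box TTATGTAA, found in 3.17% and 0.819% of all promoters, were present in none. Slc25a33 has an E-box that begins 8 bases before its start, on chromosome 4 from 149774268 to 149774517, minus strand, and Slc25a25 has a cAMP response element that begins 150 bases before 1 of its 3 starts, on chromosome 2 from 32424067 to 32424316, minus strand. Which start was in use cannot be told from the counts, a match in sequence does not show that a factor binds, and the matches are in capitals.
Slc25a33: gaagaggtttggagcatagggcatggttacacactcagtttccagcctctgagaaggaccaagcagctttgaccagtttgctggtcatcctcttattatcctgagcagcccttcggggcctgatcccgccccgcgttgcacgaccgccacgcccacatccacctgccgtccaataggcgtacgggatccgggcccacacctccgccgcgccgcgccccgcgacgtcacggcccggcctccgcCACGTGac
Slc25a25: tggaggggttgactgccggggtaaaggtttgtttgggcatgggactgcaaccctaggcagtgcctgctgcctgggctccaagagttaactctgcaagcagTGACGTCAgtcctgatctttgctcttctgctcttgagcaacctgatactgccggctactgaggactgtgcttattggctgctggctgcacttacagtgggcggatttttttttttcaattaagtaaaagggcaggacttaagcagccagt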

How the data were processed

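The deposited values are the authors' raw counts of reads per gene for 56748 genes, without normalization, from reads aligned to GRCm39 with HISAT2 and counted with featureCounts. The length of each gene in bases, as in the deposited table, was used only for CPM per kilobase. Fits used edgeR 4.0.16 and limma 3.58.1 in R 4.3.3, with TMM scaling, edgeR's expression filter (minimum count 10, minimum total 15), robust quasi-likelihood dispersions and Benjamini-Hochberg adjustment over all genes tested. DESeq2 1.42.0 served as an alternative. Figures were drawn with matplotlib 3.10.9 and pandas 2.3.3 in Python 3.11.15.

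Diet was fitted per tissue and cohort, cohort by diet per tissue, and tissue by diet per cohort with the mouse as a block. Printed CPM are scaled over the 3 tissues of a cohort, and this scaling shifts IF against AL by at most 0.05 on the log2 scale from that of the fits, in liver of mice 1-16. The standard error is the size of the log2 fold change over the square root of F. The members and the lists of other genes were chosen with earlier results of these data known.

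All members could be named with their level. Full values were given for the 6 called members with the largest change per diet comparison among those with a mean of at least 1 CPM in AL or IF mice, the 5 members with the highest CPM per kilobase in AL mice of each tissue, members called in the same direction in liver of both cohorts, of which there were 0 by edgeR, and members called in opposite directions in 2 tissues of a cohort. Other genes were named from the lists. Some genes are not reported here.

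The end of a fast and the months of fasting cannot be told apart in IF mice. Protein and transport activity were not measured.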

Additional observations from a re-analysis of the deposited data

Results flagged for a closer look

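In 3 of 28 groups of libraries examined, the highest library lay far from the others of its group. Slc25a47 in liver of AL mouse 8 had 625 CPM where the next AL mouse had 325, a gap of 0.582 of the range of the group. Slc25a1 in muscle of IF mouse 12 had 309 CPM where the next IF mouse had 155 (gap 0.53), and Slc25a25 in muscle of IF mouse 9 had 235 CPM where the next had 116 (gap 0.641). How often chance marks a group in this way was not tested, and no library was left out on this ground.

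The response to IF differed between the cohorts by edgeR's interaction test for 11 values among the members with the largest called changes of each diet comparison. In liver the log2 difference, mice 25-40 minus mice 1-16, was 1.14 (adjusted p = 4.07e-06) for Slc25a16, -1.49 (adjusted p = 0.0373) for Slc25a25, -2.43 (adjusted p = 1.67e-07) for Slc25a33, 1.15 (adjusted p = 8.72e-06) for Slc25a45 and -1.48 (adjusted p = 0.0028) for Slc25a47. For Slc25a25, AL mouse 29 had 14855 counts, where the other AL livers of mice 25-40 had at most 3817. That difference was not tested without this mouse. In muscle it was -3.11 (adjusted p = 0.00328) for Slc25a1, -2.32 (adjusted p = 0.000518) for Slc25a25, 0.70 (adjusted p = 0.00545) for Slc25a29, 0.74 (adjusted p = 0.00394) for Slc25a47 and -1.26 (adjusted p = 0.00825) for Slc25a53. In cortex it was -0.40 (adjusted p = 0.0173) for Slc25a33, which did not pass with the left-out library included (-0.35, adjusted p = 0.0886). The call of Slc25a25 in liver did not pass with no filter beyond 1 count (adjusted p = 0.0621). Sex and cohort coincide, and which of them goes with the difference was not tested.

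Members called in opposite directions in 2 tissues of mice 1-16 also differed by the interaction of tissue and diet. For Slc25a4, Slc25a10, Slc25a13, Slc25a36 and Slc25a44, at least 1 of the 2 calls was lost under an alternative, as given with the results. Muscle minus liver was -0.90 (adjusted p = 1.79e-05) for Slc25a4, 1.53 (adjusted p = 0.000136) for Slc25a10, -1.90 (adjusted p = 0.000201) for Slc25a13, 1.78 (adjusted p = 2.05e-13) for Slc25a17, -1.79 (adjusted p = 1.58e-06) for Slc25a29, -1.04 (adjusted p = 2.6e-05) for Slc25a36 and -2.79 (adjusted p = 1.47e-09) for Slc25a47. Cortex minus liver was 0.72 (adjusted p = 0.000209) for Slc25a44. The tissues come from the same mice, and the cause of the differences was not tested.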

How the results depend on the processing

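The alternatives were RLE size factors, DESeq2, no filter beyond 1 count, a replicate block and the erythrocyte markers as a covariate. The others were 7 mice per group, and each library left out in turn. The setting with 7 mice per group left out AL mouse 2 and IF mouse 10. In cortex, where the library of AL mouse 1 was already out, fewer than 7 AL libraries then remained. The adipocyte covariate, and the inclusion of the cortex library of AL mouse 1 in the fits of cohort and tissue, were chosen after seeing the data. In liver of mice 1-16 the count of members called was 30, between 20 and 29 under the other settings, and between 27 and 30 with 1 library left out. In muscle of mice 1-16 it was 15, between 13 and 17, and between 13 and 16. In mice 25-40 it was 0 by edgeR and by DESeq2 under each setting run there, in each tissue.

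In cortex of mice 1-16 the 2 members called became 0 with a replicate block and 0 without AL mouse 2 and IF mouse 10. They also became 0 with the library of AL mouse 1 included. Slc25a33 then had 0.31, adjusted p = 0.0603, 0.26, adjusted p = 0.0545 and 0.25, adjusted p = 0.0773, and Slc25a44 had 0.30, adjusted p = 0.0646, 0.27, adjusted p = 0.0585 and 0.25, adjusted p = 0.0859. The cause was not tested. The other settings gave 2 or 3 members, as did leaving out each library. The cohort difference in liver, called for 16 members, was called for 13 with no filter beyond 1 count and 17 by DESeq2. The cohort difference in cortex, called for 1 member, was called for 0 with that library included.

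Of the counts of members under other settings, 84 stayed within 1.5 times the count reported and the 4 given here did not. Only the counts were compared, so the 84 include counts of 0 in mice 25-40 that stayed at 0. They also include the 15 of muscle with the adipocyte covariate, of which 11 were called without it. Among values of single members under these settings, 43 lost their call, 565 did not and 0 changed direction.

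The replicate block treats AL and IF mice with the same replicate number as paired. Over genes, the libraries of such pairs correlated above 0.1 after the diet was removed in 1 of 8 pairs in liver of mice 1-16, 1 of 8 in muscle and 1 of 7 in cortex, and in 1, 4 and 2 of 8 in mice 25-40. The numbers were therefore read as labels and not as pairs. Depth limits the members under about 1 CPM, whose counts are few.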
